A study of Mus musculus with 14 samples.

Results

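A set of 10 genes of the intermediate filament family was followed by RNA-seq in EpH4 and EpRas cells: Vim, which encodes vimentin, and the keratin genes Krt5, Krt6a, Krt7, Krt8, Krt14, Krt15, Krt17, Krt18 and Krt19. They were chosen by name, as 10 of the 23284 genes listed in both tables of the study. EpH4 is a mouse mammary gland epithelial line, and EpRas is its H-Ras-transformed derivative. EpH4 cells were grown in 10% and EpRas cells in 4% fetal bovine serum, so the oncogene and the serum cannot be told apart in a comparison of the lines, and each is a single line. Both lines were left untreated or treated with TGF-β3 at 1 ng/ml for 48 h. These 4 groups without siRNA held 2 libraries each, 8 libraries in all. The other 6 libraries came from EpRas cells that had received control siRNA, named siNC, or pair 1 or pair 2 of Etv4/Etv5 siRNAs, either untreated or given TGF-β for 48 h, with a single library per condition. The study asked how TGF-β and Ras, and the ETS factors Etv4 and Etv5, shape gene expression during the epithelial-mesenchymal transition (EMT).

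Intermediate filaments are the tissue-specific part of the cytoskeleton. Keratin filaments are built from obligate pairs of a type II and a type I keratin, whereas vimentin, a type III protein, forms filaments by itself. In the mammary gland the luminal cells are known for Krt8, Krt18, Krt19 and Krt7 and the basal cells for Krt5, Krt14, Krt15 and Krt17, with Krt6a counted among the basal keratins here, while vimentin is a widely used marker of mesenchymal cells and of EMT. Of the 10 genes, the type II keratin genes are Krt5, Krt6a, Krt7 and Krt8, and the type I keratin genes are Krt14, Krt15, Krt17, Krt18 and Krt19.

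In the coordinates of mm10, Vim lies on chromosome 2 from 13574311 to 13582826. All type II genes and Krt18 lie within 619.6 kb of chromosome 15, where Krt8 (101996711 to 102004342) and Krt18 (102028216 to 102032026) are neighbours on opposite strands. The other type I genes, Krt14, Krt15, Krt17 and Krt19, lie within 129.2 kb of chromosome 11. The GENCODE annotation places an antisense transcript over Krt7 and a non-coding gene on the other strand over Krt8, and whether the strand was used in counting was not given in the sources used here. Krt14, Krt16 and Krt17 are close paralogs, as are Krt6a and Krt6b, so reads may have been split or shared among them.

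The 250 bases before the start sites of Vim and Krt7 are shown because Vim had the largest difference between the lines among the members and Krt7 was the most abundant keratin gene of EpH4 cells, and because Etv4 and Etv5 are ETS factors, whose DNA-binding sites share the core GGAA. The sequences are from RefSeq on GRCm38.p6 (the build of mm10), written 5′ to 3′ on the strand of each gene. Capitals mark GGAA or its reverse complement TTCC, and CAGGTG or its reverse complement CACCTG, an E-box that Snail and ZEB factors can bind. No match of one motif overlapped a match of the other.
Vim, chr2:13574061-13574310, plus strand: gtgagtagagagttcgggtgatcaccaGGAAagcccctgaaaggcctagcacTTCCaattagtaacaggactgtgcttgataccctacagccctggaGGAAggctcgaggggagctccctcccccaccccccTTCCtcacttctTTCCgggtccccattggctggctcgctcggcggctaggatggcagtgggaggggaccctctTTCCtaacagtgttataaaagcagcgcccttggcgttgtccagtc
Krt7, chr15:101412153-101412402, plus strand: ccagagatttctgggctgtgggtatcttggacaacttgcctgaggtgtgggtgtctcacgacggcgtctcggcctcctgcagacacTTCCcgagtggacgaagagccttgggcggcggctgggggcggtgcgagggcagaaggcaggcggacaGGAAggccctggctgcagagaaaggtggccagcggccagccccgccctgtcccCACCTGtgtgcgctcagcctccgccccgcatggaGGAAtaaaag
GGAA was found 6 times in the Vim window and 3 times in the Krt7 window, against a median of 3 over 32851 promoter windows of the same length, of which 93.4% held it at least once. CAGGTG was found 1 time in the Krt7 window and not in the Vim window, and 17.2% of all windows held it. The windows of Krt8 and Krt18 held GGAA 3 times and 1 time, and CAGGTG 1 time each. The Krt5 window held GGAA 2 times and CAGGTG 1 time. The Krt14 window, whose RefSeq start site lies 1480 bases downstream of that in the authors' table, held GGAA 6 times and CAGGTG 0 times. These counts describe the letters in these windows and say nothing of binding.

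Levels are given as FPKM, a fragment count corrected for exon length and for how many fragments mapped in that library. Since FPKM is divided by length, genes can be set side by side. Differences were tested on log2(FPKM + 1) with limma over 9100 genes, each with at least 5 FPKM in 1 or more untransfected libraries, and a gene was called at an adjusted p under 0.05 (Benjamini-Hochberg). The 2 libraries of a group were biological replicates. Of the 10 genes, 7 passed the filter, Vim and Krt19 only through EpRas cells and Krt17 only through EpH4 cells, and Krt5, Krt6a and Krt15 did not pass. Summed over all genes, the untransfected libraries held 502262 to 633763 FPKM, and the deepest of them had 2.23 times the depth of the shallowest. The TGF-β-treated EpRas libraries stood furthest apart from each other, with 510 genes at least 2-fold apart and r = 0.91, against 55 to 197 genes and r = 0.96 to 0.98 within the other groups.

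**Figure D1:**
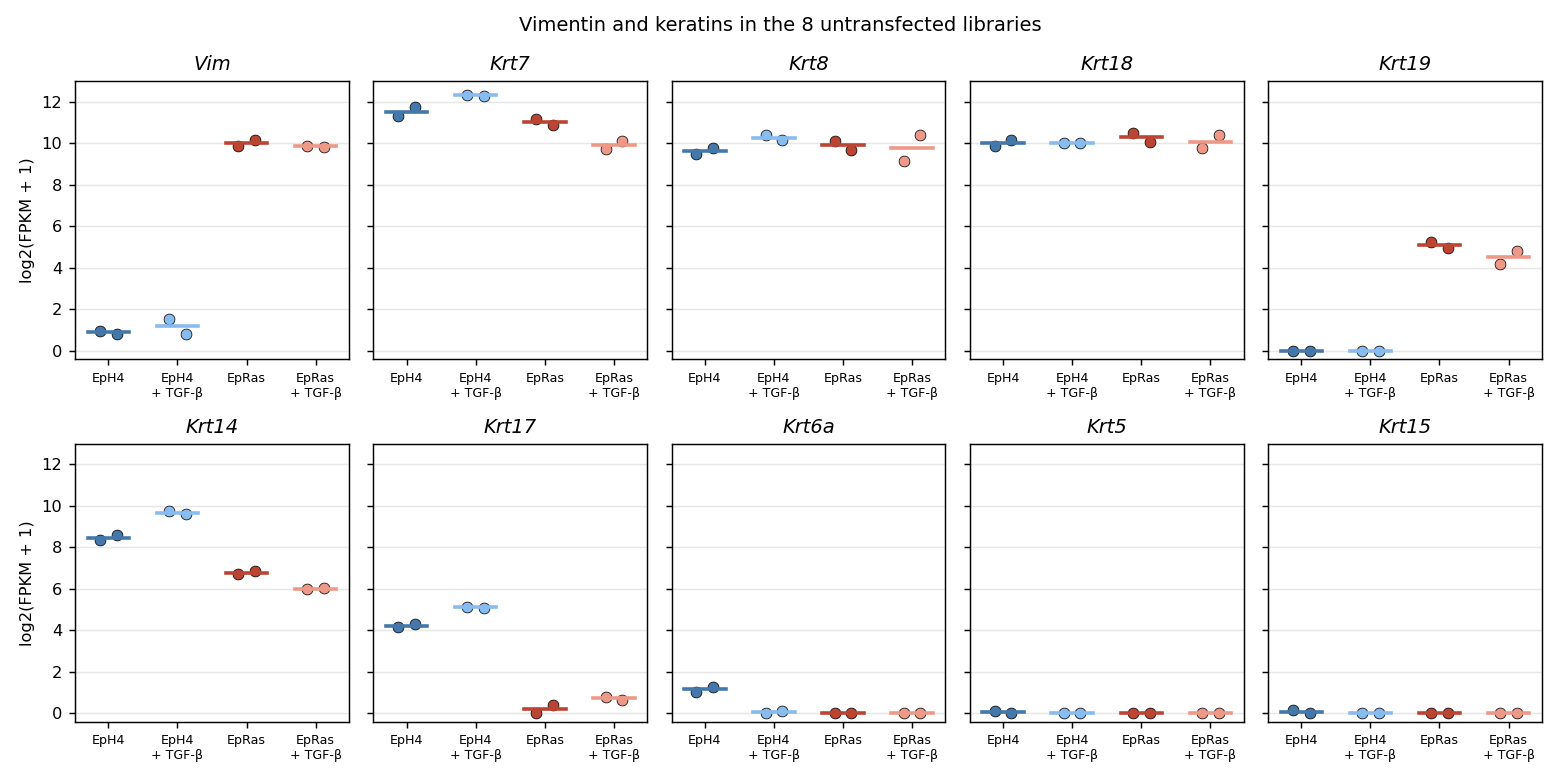
Level of each of the 10 genes as log2(FPKM + 1) in the untransfected libraries. Points are the 2 libraries of a group and bars their mean. Vim and Krt19 are high in EpRas cells only, and Krt14 and Krt17 are higher in EpH4 cells. Krt5 and Krt15 lie near 0 in both lines, and Krt6a in EpRas and TGF-β-treated EpH4 cells.

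Vim was close to the floor of the measurement in EpH4 cells, and in EpRas cells it ranked between 66 and 103 among all genes. The untreated EpH4 libraries held 0.939 and 0.769 FPKM of Vim and the treated ones 1.88 and 0.777 FPKM. The untreated EpRas libraries held 924 and 1156 FPKM and the treated ones 939 and 915 FPKM. The lines did not overlap, and the lowest EpRas library was 487 times the highest EpH4 library. In RNA from whole cultures, fewer cells with a transcript and less of it per cell cannot be told apart. The EpH4 values rested on 9, 10, 13 and 8 reads, recovered from the steps between the FPKM values, and the EpRas values on 5399 to 12556 reads. For the EpH4 library with the highest value, 1.88 FPKM, the exact 95% Poisson interval of 13 reads runs from 1.00 to 3.21 FPKM and covers counting error only. By group means Vim was 1218-fold higher in EpRas than in EpH4 cells without TGF-β and 698-fold higher with TGF-β. The latter fold hung on TGF-β-treated EpH4 library 1, at 1.88 FPKM against 0.777 FPKM in library 2. On the log2(FPKM + 1) scale, which understates changes of such low values, the differences without and with TGF-β were 9.13 ± 0.24 (SE, n = 2 libraries per group, limma adjusted p = 2.85e-06) and 8.68 ± 0.24 (adjusted p = 2.68e-06). Without TGF-β-treated EpH4 library 1 the latter was 9.03. Because Vim passed the filter only through EpRas libraries, these tests between the lines are a description.

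TGF-β did not detectably move Vim in either line. The difference was 0.29 ± 0.24 in EpH4 cells (limma adjusted p = 0.528) and -0.16 ± 0.24 in EpRas cells (adjusted p = 0.823). The difference between these effects was -0.45 ± 0.34 (adjusted p = 0.673). None of the 3 was called. The sign in EpH4 cells turned without TGF-β-treated EpH4 library 1 (-0.06), and that in EpRas cells without untreated EpRas library 2 (0.0042).

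Vimentin is also expressed by fibroblasts, endothelial cells and leukocytes, so the markers of these cells were read in the same libraries. Of 9 fibroblast markers, Col3a1, Thy1, Dcn, Lum and Fap were under 1 FPKM in all untransfected libraries, with Thy1, Lum and Fap listed at 0. The summed level of the 9 was 22.7 to 247 FPKM in EpH4 and 8.42 to 13.6 FPKM in EpRas libraries, most of it Col1a1 in EpH4 cells. Of the 3 that could be tested, the collagen genes Col1a1 and Col1a2 were lower in EpRas cells in both conditions, a description since both reached 5 FPKM only in EpH4 libraries. Pdgfrb, a receptor of stromal cells, was higher in EpRas cells without TGF-β (2.14 ± 0.18, limma adjusted p = 0.000354), at 7.14 and 8.11 against 0.915 and 0.988 FPKM, and lower with TGF-β (-0.66 ± 0.18, adjusted p = 0.0395).

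All 5 endothelial markers stayed under 1 FPKM. Of 5 immune markers, Ptprc, the pan-leukocyte marker, was listed at 0, and Cd3e and Cd79a were under 1 FPKM. Cd68, a lysosomal protein of macrophages, was at 0.293 to 2.75 FPKM in EpH4 and at 3.81 to 7.13 FPKM in EpRas libraries, which did not overlap, and was not called without TGF-β (1.01 ± 0.47, limma adjusted p = 0.186) or with TGF-β (1.55 ± 0.47, adjusted p = 0.0549). As Cd68 reached 5 FPKM only in TGF-β-treated EpRas library 1, these values are a description. Csf1r, a receptor of macrophages, was highest in the treated EpH4 libraries (6.23 and 5.74 FPKM) and stood between 0.103 and 1.53 FPKM in the other untransfected ones. The summed level of the 5 immune markers was 1.81 to 8.49 FPKM in EpH4 and 4.50 to 8.27 FPKM in EpRas libraries. The part of such cells in the Vim result was not tested.

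The luminal pair Krt8 and Krt18, the first keratins of simple epithelia, stayed at a high and similar level in both lines. In EpH4 cells Krt8 was at 703 and 885 FPKM untreated and at 1335 and 1138 FPKM after TGF-β. In EpRas cells Krt8 was at 1114 and 814 FPKM without and at 561 and 1361 FPKM with TGF-β. The lines overlapped in both conditions, and the TGF-β-treated EpRas libraries held both the lowest and the highest of the 8 values.

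In EpH4 cells Krt18 was at 922 and 1132 FPKM untreated and at 1028 and 1035 FPKM after TGF-β. The EpRas libraries held 1449.6 and 1081 FPKM untreated and 868 and 1356 FPKM after TGF-β. All 8 values lay within a range of less than 2-fold. Between EpRas and EpH4 cells, Krt18 differed by 0.29 ± 0.25 untreated (limma adjusted p = 0.473) and by 0.07 ± 0.25 after treatment (adjusted p = 0.860).

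For Krt8 the same differences were 0.27 ± 0.39 (limma adjusted p = 0.683) and -0.50 ± 0.39 (adjusted p = 0.405). The latter hung on single libraries, since it was -1.13 (adjusted p = 0.0293) without TGF-β-treated EpRas library 2 and 0.14 (adjusted p = 0.746) without library 1. With TGF-β Krt8 differed by 0.64 ± 0.39 in EpH4 cells (adjusted p = 0.376), where the treated and untreated libraries did not overlap, and by -0.12 ± 0.39 in EpRas cells (adjusted p = 0.925). The effects on Krt18 were 0.01 ± 0.25 and -0.21 ± 0.25 (adjusted p = 0.990 and 0.778).

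Krt7, a type II keratin of ductal and simple epithelia, was the most abundant of the 10 genes in all EpH4 libraries. The untreated EpH4 libraries held 2549.8 and 3425 FPKM and the treated ones 5185 and 4941 FPKM, where it ranked 2nd and 4th among all genes. The untreated EpRas libraries held 2275 and 1908 FPKM and the treated ones 845 and 1120.0 FPKM, at ranks 77 and 83. The lines did not overlap in either condition, and the treated and untreated libraries did not overlap within a line. The authors' Cuffdiff interval for TGF-β-treated EpH4 library 1 ran from 0 to 32064 FPKM, so a single library gave little precision by that measure.

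Without TGF-β, Krt7 differed between EpRas and EpH4 cells by -0.50 ± 0.21 and was not called (limma adjusted p = 0.153). With TGF-β it was 5.15-fold lower in EpRas cells by group means, a difference of -2.38 ± 0.21 on the log2(FPKM + 1) scale (adjusted p = 0.000331). With TGF-β it differed by 0.78 ± 0.21 in EpH4 cells, which was not called (adjusted p = 0.0690, though 0.0153 by the Tukey-Kramer test on FPKM), and fell in EpRas cells (-1.10 ± 0.21, adjusted p = 0.0371). The test of the difference between both effects gave -1.87 ± 0.30 (adjusted p = 0.0491). In the siRNA libraries of EpRas cells, 1 each, Krt7 differed with TGF-β by 0.15 in siNC, 0.03 in pair 1 and -0.225 in pair 2. The fall of the untransfected EpRas cells was thus not seen in siNC or pair 1. The call in EpRas cells held under 7 of 16 alternative limma settings and that of the difference under 3 of 15, with the direction kept in all of them. The first was lost without either TGF-β-treated EpH4 library (adjusted p = 0.0996 both), without untreated EpRas library 1 (0.245) or 2 (0.124) and without TGF-β-treated EpRas library 1 (0.129). The second was lost without any single library (adjusted p = 0.0917 to 0.275) other than TGF-β-treated EpRas library 2.

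Krt19, a small type I keratin of luminal and progenitor cells, followed the lines as Vim did. It was listed at 0 in all 4 EpH4 libraries. The EpRas libraries held 37.4 and 29.5 FPKM untreated and 17.1 and 27.4 FPKM after TGF-β, which is 101 to 230 reads. The lines did not overlap. An exact 0 in these tables can be absence or a failed estimate, which cannot be told apart here, and no fold is given. Krt19 was called as higher in EpRas cells without TGF-β (limma adjusted p = 2.29e-05) and with TGF-β (adjusted p = 2.84e-05). It passed the filter only through EpRas libraries, so these calls are a description. The treated EpRas libraries lay below the untreated ones, with a difference of -0.59 ± 0.23 that was not called (adjusted p = 0.276).

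Of the basal keratin genes, Krt14 was the most abundant. Krt14, the type I keratin of basal and myoepithelial cells, stood in EpH4 cells at 327 and 386 FPKM untreated and at 851 and 784 FPKM after TGF-β. The EpRas libraries held 103 and 115 FPKM untreated and 62.2 and 64.6 FPKM after TGF-β. The 4 groups did not overlap, and each pair of libraries lay close together.

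Krt14 was 3.26-fold lower in EpRas than in EpH4 cells without TGF-β and 12.9-fold lower with TGF-β. On the log2(FPKM + 1) scale the differences were -1.69 ± 0.16 (limma adjusted p = 0.000545) and -3.67 ± 0.16 (adjusted p = 1.35e-05). TGF-β raised Krt14 in EpH4 cells by 1.20 ± 0.16 (adjusted p = 0.00409) and lowered it in EpRas cells by 0.78 (-0.78 ± 0.16, adjusted p = 0.0420). The difference between both effects was -1.98 ± 0.22 (adjusted p = 0.0127). In the siRNA libraries of EpRas cells, 1 each, Krt14 differed with TGF-β by 0.36 in siNC, -0.14 in pair 1 and -0.58 in pair 2. The fall of the untransfected EpRas cells was thus not seen in siNC. The call in EpH4 cells was lost without TGF-β-treated EpH4 library 1 (adjusted p = 0.0587), and that in EpRas cells held under 4 of 16 alternatives and was lost without any one of the 8 libraries (adjusted p = 0.0637 to 0.210). The call of the difference held under 10 of 15. It was lost without untreated EpH4 library 1 (adjusted p = 0.0601), TGF-β-treated EpH4 library 1 (0.128) or 2 (0.0884), or untreated EpRas library 1 (0.0505) or 2 (0.0724).

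Krt17, a type I keratin of basal cells and of activated epithelia, stood in EpH4 cells at 17.0 and 18.6 FPKM untreated and at 34.6 and 32.7 FPKM after TGF-β. The EpRas libraries had it listed at 0 and at 0.344 FPKM untreated and at 0.758 and 0.585 FPKM after TGF-β, which is 0, 3, 5 and 3 reads. The lines did not overlap, and EpH4 cells had 131 to 270 reads. Krt17 was called as lower in EpRas cells without TGF-β (-4.02 ± 0.18, limma adjusted p = 2.20e-05) and with TGF-β (-4.38 ± 0.18, adjusted p = 1.30e-05). These calls are a description, since Krt17 passed the filter only through EpH4 libraries.

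TGF-β raised Krt17 1.89-fold in EpH4 cells (0.88 ± 0.18, limma adjusted p = 0.0255). This call was lost without any one of the 4 EpH4 libraries (adjusted p = 0.0999 to 0.186). In EpRas cells the difference was 0.53 ± 0.18 (adjusted p = 0.214), and that between both effects was -0.36 ± 0.26 (adjusted p = 0.659).

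Krt5, the usual type II partner of Krt14, was at 0.0856 FPKM in untreated EpH4 library 1, which is 1 read, and listed at 0 in the other 7 untransfected libraries. Krt15, a type I keratin of basal progenitors, likewise had 1 read, in the same library (0.112 FPKM). Krt6a, a type II keratin of stressed and activated epithelia, was at 1.08 and 1.40 FPKM in untreated EpH4 cells, from 13 and 23 reads. It was listed at 0 and at 0.0771 FPKM (1 read) with TGF-β, and at 0 in all 4 EpRas libraries. The basal partner of Krt14 was thus near 0 in EpH4 cells with abundant Krt14, and of the type II members only Krt7 and Krt8 were abundant.

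In all, 7 of the 10 genes were tested. Without TGF-β, 2 of these 7 were called as higher in EpRas than in EpH4 cells (Vim and Krt19), where 8.45% of the 9100 genes tested were. Another 2 were called as lower (Krt14 and Krt17), where 9.11% were. With TGF-β, the same 2 were called as higher (8.92% of all genes) and 3 as lower, with Krt7 added (12.3%). TGF-β raised 2 in EpH4 cells (Krt14 and Krt17, 6.48% of all genes) and lowered none there (2.91%). In untransfected EpRas cells TGF-β raised none (1.9%) and lowered 2 (Krt7 and Krt14, 1.92%). The difference between both effects was called for the same 2, both with the lower effect in EpRas cells (0.626%), and for none with the higher effect there (0.176%). The median difference over all genes tested was between -0.03 and 0.00 in each of the 5 comparisons. Since Vim, Krt19 and Krt17 passed the filter only through the line in which they were high, their counts and calls between the lines are a description.

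**Figure D2:**
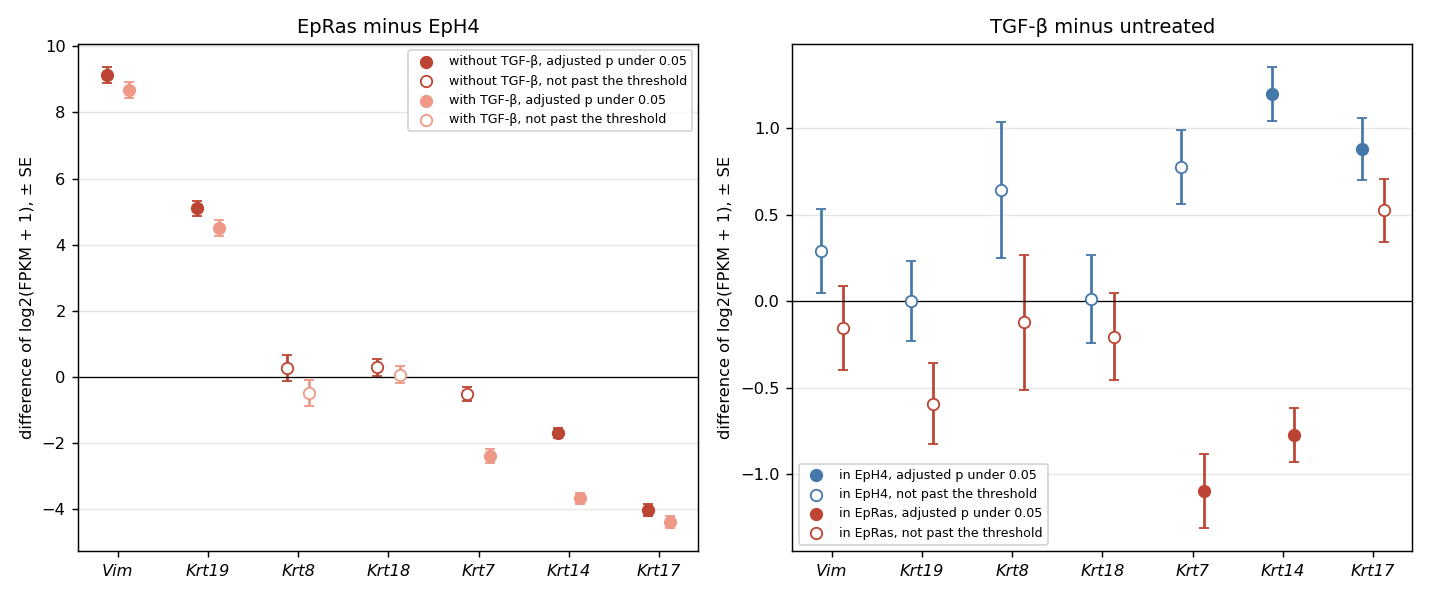
Differences of log2(FPKM + 1) with their standard errors for the 7 genes tested. Left, EpRas minus EpH4 cells. Right, TGF-β-treated minus untreated cells. Filled points had a limma adjusted p under 0.05. Krt7 and Krt14 lie above 0 in EpH4 cells and below 0 in EpRas cells on the right.

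The make-up of the filament transcripts was read in each library as shares of summed FPKM. Vim held 0.00980 to 0.0223% of the 10 genes in EpH4 libraries and 15.7 to 28.5% in untransfected EpRas libraries. Basal keratins held 7.63 and 6.94% of the keratin sum in untreated EpH4 cells, 10.5 and 10.3% after TGF-β, and 1.66 to 2.93% in EpRas cells. Krt7 alone held 56.4 to 62.3% of the keratin sum in EpH4 and 28.5 to 48.3% in EpRas libraries. Neither share overlapped between the lines.

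The sum of type II keratins was above that of type I keratins in every library. The ratio of type II to type I FPKM was 2.57 and 2.81 in untreated and 3.41 and 3.28 in TGF-β-treated EpH4 cells. It was 2.13 and 2.22 in untreated and 1.48 and 1.71 in TGF-β-treated untransfected EpRas cells, so the 4 groups did not overlap. The ratio was higher with than without TGF-β in EpH4 cells and lower in untransfected EpRas cells. The siRNA libraries of EpRas cells did not show this fall. The summed keratin level was 4520 to 8433 FPKM in EpH4 and 2354 to 4979 FPKM in untransfected EpRas libraries, which overlap.

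**Figure D3:**
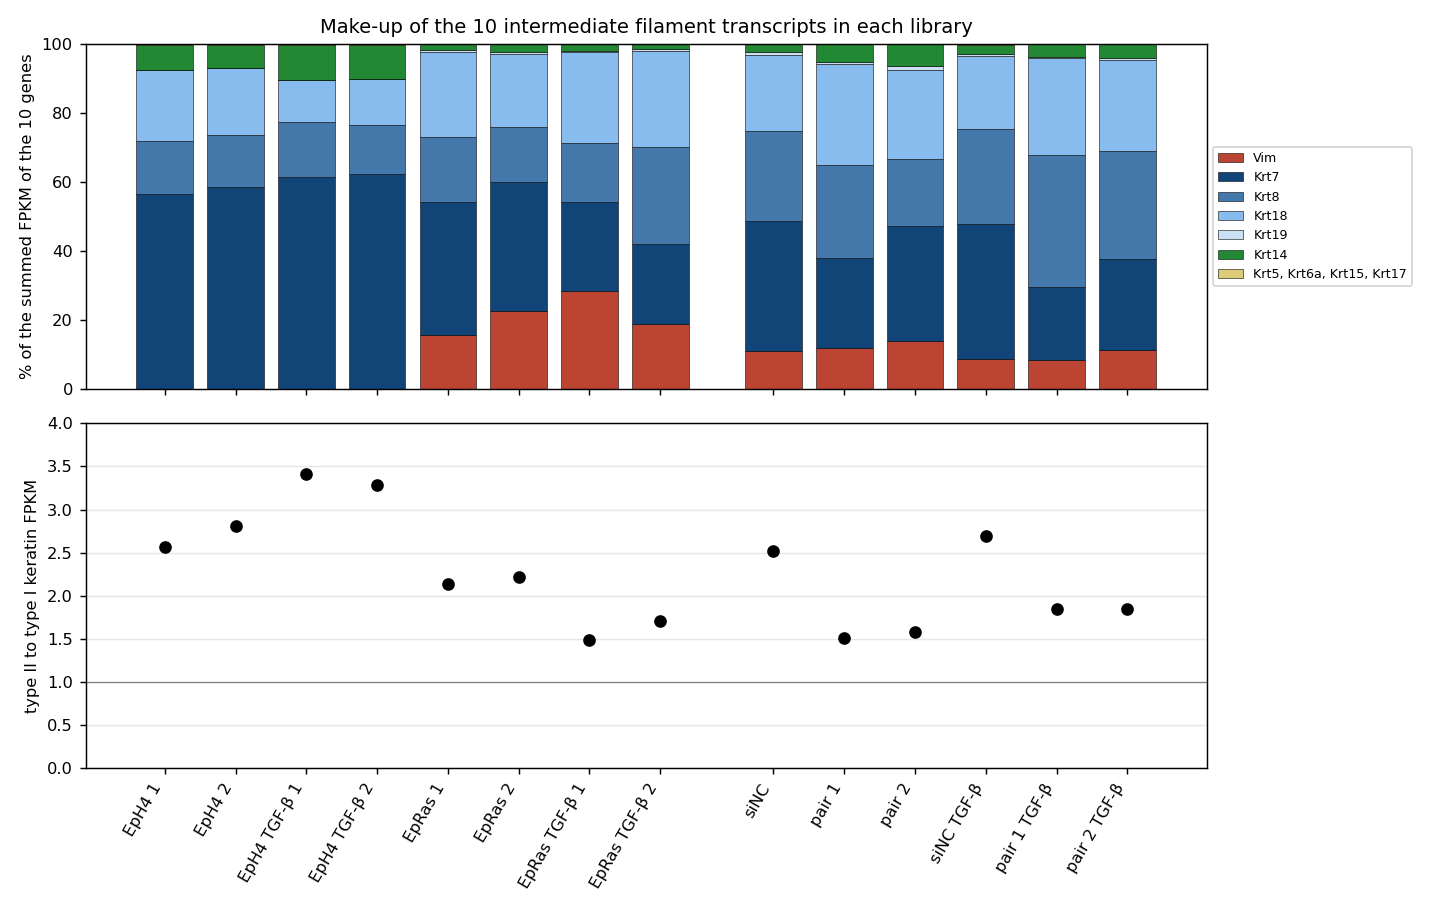
Top, share of each gene in the summed FPKM of the 10 genes in each of the 14 libraries. Bottom, ratio of summed type II to summed type I keratin FPKM. Vim takes 15.7 to 28.5% of the sum in untransfected EpRas libraries and at most 0.0223% in EpH4 libraries, and the ratio is lowest, 1.48 and 1.71, in TGF-β-treated EpRas cells among the untransfected libraries.

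The labelled origin was read against mammary markers. Of 16 luminal markers, 9 reached 5 FPKM, while Elf5, Pgr, Prlr, Csn2 and Wap, which include the milk protein genes, were under 1 FPKM in all untransfected libraries. Of 14 basal and myoepithelial markers, 5 reached 5 FPKM. Under 1 FPKM in all untransfected libraries were 7 of them, Krt5, Krt15, the smooth muscle genes Myh11 and Cnn1, Oxtr, Lgr5 and Mme. Trp63, a transcription factor of basal epithelial cells, was at 7.37 and 8.60 FPKM in EpH4 cells untreated and at 4.64 and 5.52 FPKM after TGF-β. In EpRas cells Trp63 was listed at 0 in 3 libraries and at 0.197 FPKM in the other. It passed the filter only through EpH4 libraries, so its call as lower in EpRas cells in both conditions (limma adjusted p = 4.11e-05 and 6.71e-05) is a description. Of the other 2 basal markers outside the keratins that could be tested, Itga6, the laminin receptor subunit integrin alpha 6, was higher in EpRas cells in both conditions (1.28 ± 0.18 and 1.34 ± 0.18, adjusted p = 0.00332 and 0.00191). Acta2, smooth muscle actin and a marker of myoepithelial cells, was higher in EpRas cells without TGF-β (0.76 ± 0.21, adjusted p = 0.0422) and lower with TGF-β (-1.62 ± 0.21, adjusted p = 0.00162).

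Apart from the keratins, 5 luminal markers could be tested. Without TGF-β, 3 of them were lower in EpRas cells, namely the tight junction genes Cldn3 (-1.27 ± 0.27) and Cldn4 (-1.80 ± 0.40) and Cdh1, which encodes E-cadherin (-0.96 ± 0.15; limma adjusted p = 0.0182, 0.0222 and 0.00633). With TGF-β all 5 were lower, with Epcam and Gata3 added. TGF-β raised 1 of the 5 in EpH4 cells, Cdh1 (0.79 ± 0.15, adjusted p = 0.021), and lowered 1 in EpRas cells, Gata3 (from 21.1 and 17.7 to 8.30 and 10.2 FPKM, adjusted p = 0.0332). The difference between both effects was called for none of the 5 (adjusted p = 0.0705 for Cdh1 and 0.165 for Gata3). Acta2 was raised by TGF-β in EpH4 cells by 2.81 ± 0.21 (adjusted p = 0.000344), from 0.108 and 0.636 to 8.22 and 8.64 FPKM. Its effect differed between the lines by -2.38 ± 0.29 (adjusted p = 0.0172). Acta2 passed the filter only through the TGF-β-treated EpH4 libraries, so these values and its differences between the lines are a description.

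Beyond the 9 keratin genes followed here, the tables list 43 other genes with a Krt symbol. Of these, 38 stayed under 1 FPKM in all 14 libraries and 2 reached 5 FPKM. Krt80, a type II keratin, was at 50.6 to 84.2 FPKM in EpH4 and at 20.9 to 44.7 FPKM in untransfected EpRas libraries. Krt16, a type I keratin usually paired with Krt6 genes, was at 2.87 and 2.39 FPKM in EpH4 cells untreated, at 6.75 and 8.84 FPKM after TGF-β, and at 0.551 to 1.12 FPKM in EpRas cells. Neither gene overlapped between the lines.

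Of 15 intermediate filament genes outside the keratins and Vim, 4 could be tested, Nes and the lamin genes Lmna, Lmnb1 and Lmnb2, and Nes, which encodes the stem cell filament protein nestin, was lower in EpRas cells without TGF-β (limma adjusted p = 0.0101) and with TGF-β (-1.22 ± 0.18, adjusted p = 0.00347). As Nes reached 5 FPKM in 1 library only, of TGF-β-treated EpH4 cells, these calls are a description. None of the 4 was called for TGF-β in either line. Des, Gfap, Prph, Ina, Nefl and Nefm were under 1 FPKM in all untransfected libraries.

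A list of 15 genes for filament linkers, desmosomal plaque proteins and keratin-associated factors, which also held Trp63, gave 12 that could be tested. Without TGF-β, 1 was higher in EpRas cells, Plec, the cytolinker plectin (0.96 ± 0.19, limma adjusted p = 0.0132), and 3 were lower, Evpl, Macf1 and Trp63. With TGF-β, 7 were lower and none higher, among them Trp63, the plakophilins Pkp1 (-1.90 ± 0.29) and Pkp3 (-1.66 ± 0.26), and Evpl, or envoplakin (-1.90 ± 0.18; adjusted p = 0.00378, 0.00459 and 0.000417). Evpl, like Trp63, passed the filter only through EpH4 libraries, and its calls are a description. TGF-β raised 4 in EpH4 cells, Pkp1 (1.64 ± 0.29), Jup, or plakoglobin (1.38 ± 0.17), Pkp2 and Dsp, the desmosomal proteins that anchor keratin, and lowered 1, Ppl, or periplakin. In EpRas cells it raised none and lowered 1, again Ppl (-2.45 ± 0.21, adjusted p = 0.00144), which passed the filter only through untreated libraries and whose calls are a description too. The difference between both effects was called for none of the 12.

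Of 8 EMT transcription factors 4 could be tested, and TGF-β raised Snai1, which encodes Snail, in EpH4 cells (1.64 ± 0.26, limma adjusted p = 0.00909) and lowered Prrx1 (-0.98 ± 0.16, adjusted p = 0.0108), with none called in EpRas cells. Between the lines, Twist2 was lower in EpRas cells in both conditions (-2.07 ± 0.36 and -2.06 ± 0.36), a description since it reached 5 FPKM in 1 EpH4 library only, Prrx1 was lower without TGF-β, and Twist1 was higher with TGF-β (0.68 ± 0.20, adjusted p = 0.0485). Of 8 testable epithelial regulators, 4 were lower in EpRas cells without TGF-β, Elf3, Esrp1, Grhl2 and Ovol2, of which Ovol2 reached 5 FPKM only in EpH4 libraries, and 1, Klf4, was higher. With TGF-β, 5 were lower and 1, Klf5, was higher. TGF-β lowered Klf4 and Klf5 in EpH4 cells, and Klf4 and Elf3 in EpRas cells.

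Likeness of pattern was read as Pearson's r of log2(FPKM + 1) over the 8 untransfected libraries, which share 2 lines, and is given as a description. The genes most like Vim were Rab12 (0.998), Fggy (0.998) and Dpp7 (0.998), which were all at or near 0 in EpH4 cells. Those most like Krt14 were Cdh1 (0.997) and the planar cell polarity genes Celsr1 (0.995) and Prickle1 (0.992). Those most like Krt8 were Serf2, Tom1 and Med26 (0.964 each). Among the members, Vim and Krt19 stood at 0.992, Krt14 and Krt7 at 0.948, and Krt8 and Krt18 at 0.677.

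The siRNA libraries were compared by level only, since each condition had 1 library. In the siRNA libraries Etv4 was at 20.2 and 48.5% of siNC for pairs 1 and 2 without TGF-β and at 19.6 and 29.4% with TGF-β. Etv5 was at 18.2 and 14.2% without and at 23.2 and 22.5% with TGF-β. A gene was counted where it reached 5 FPKM and both pairs lay at least 2-fold on the same side of siNC on the log2(FPKM + 1) scale. Again 7 of the 10 genes reached 5 FPKM, with Krt17 only through the TGF-β-treated siNC library.

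Krt14 was the only one counted as higher without TGF-β, where 1.54% of 9094 genes were, and none was lower (2.49%). Krt14 was at 109 FPKM in siNC and at 237 and 365 FPKM in pairs 1 and 2, so it was 2.17 and 3.35 times siNC. With TGF-β it was at 140.1 FPKM in siNC and at 214 and 244 FPKM in the pairs, 1.53 and 1.74 times siNC. Both pairs were above siNC in both conditions, and the excess over siNC was at least 2-fold only without TGF-β.

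Krt17 was the only one counted as lower with TGF-β, where 2.49% of genes were, and none was higher (1.33%). Since it passed the filter only through the TGF-β-treated siNC library, this count is a description. It was at 11.5 FPKM in siNC and at 4.17 and 2.74 FPKM in the pairs, from 195, 56 and 33 reads, or 0.362 and 0.238 times siNC. The exact 95% Poisson intervals were 9.96 to 13.3, 3.15 to 5.42 and 1.89 to 3.85 FPKM and did not overlap between siNC and the pairs, for counting error alone. Without TGF-β Krt17 was at 0.514, 0.454 and 0.242 FPKM, from 5, 6 and 3 reads, where no difference could be seen at this depth.

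Krt17 was also the one member at least 2-fold higher with than without TGF-β in siNC and in both pairs (1.34% of genes), and none was lower throughout (0.671%). This count too is a description, since the same library let Krt17 pass the filter. On the log2(FPKM + 1) scale this difference was 3.05 in siNC, 1.83 in pair 1 and 1.59 in pair 2. The untransfected EpRas libraries reached only 0.758 FPKM with TGF-β, and as the transfected and untransfected cells were processed independently and quantified apart, this difference was not tested. Krt16 stood at 1.38 to 1.78 FPKM without and at 5.05 to 6.87 FPKM with TGF-β in the siRNA libraries, with the pairs above siNC after TGF-β.

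Each luminal keratin lay within 2-fold of siNC in both pairs. Krt7 was at 1893, 1193 and 1881 FPKM in untreated siNC, pair 1 and pair 2, and after treatment at 2103, 1218 and 1609 FPKM, so pair 1 was at 0.630 and 0.579 times siNC and pair 2 at 0.993 and 0.765 times. Krt8 was at 1298, 1239.6 and 1083 FPKM without and at 1471, 2197 and 1896 FPKM with TGF-β. The pairs were below siNC for Krt8 without TGF-β and above it with TGF-β.

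Krt18 was at 1116, 1341 and 1446 FPKM without and at 1146, 1614 and 1619 FPKM with TGF-β, with both pairs above siNC in both conditions. Krt19 was at 43.9, 31.4 and 59.3 FPKM without and at 31.4, 21.8 and 34.1 FPKM with TGF-β, where the pairs lay on either side of siNC. With TGF-β Krt19 was at 0.716, 0.694 and 0.575 times its untreated level in siNC, pair 1 and pair 2.

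Vim was at 554, 551 and 773 FPKM in untreated siNC, pair 1 and pair 2, and after treatment at 465, 481 and 696 FPKM. Pair 2 was 1.39 and 1.497 times siNC, and pair 1 was 0.993 and 1.035 times siNC. Vim thus stayed at 465 FPKM or more in all 6 libraries and was not at its EpH4 level in any of them. Krt5 (0.0778 FPKM, 2 reads, in TGF-β-treated siNC), Krt6a (0.0655 FPKM, 1 read) and Krt15 (0.443 FPKM, 5 reads, both in untreated siNC) were listed at 0 in the other siRNA libraries.

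**Figure D4:**
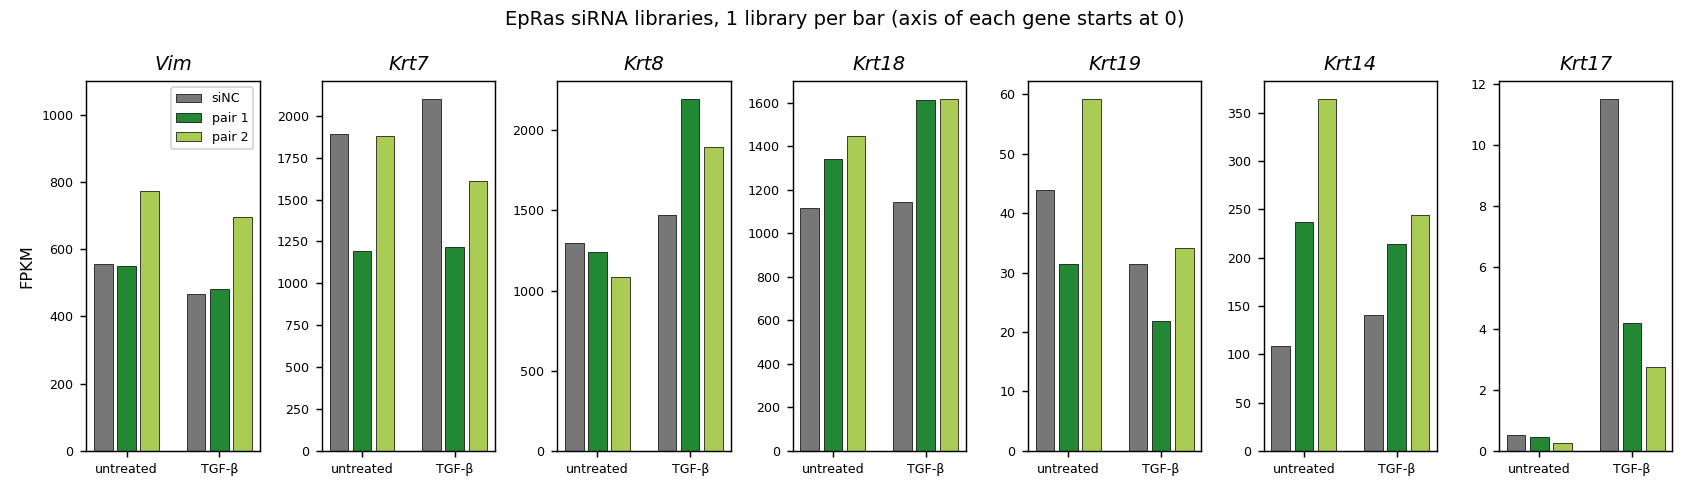
FPKM of the 7 genes that reached 5 FPKM in the EpRas siRNA libraries, 1 library per bar, with an axis from 0 for each gene. Krt14 is higher in both Etv4/5 siRNA pairs than in siNC, and Krt17 is at 11.5 FPKM in TGF-β-treated siNC and at 4.17 and 2.74 FPKM in the pairs.

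In the make-up of the siRNA libraries, Vim held 8.37 to 13.8% of the 10 genes. Basal keratins held 2.46% of the keratin sum in untreated siNC against 5.86 and 7.55% in the pairs, and 3.09% in TGF-β-treated siNC against 4.14 and 4.57%. The ratio of type II to type I keratins was 2.51 in untreated siNC against 1.51 and 1.58 in the pairs, and 2.69 in TGF-β-treated siNC against 1.84 in both. In both conditions the pairs lay together on the same side of siNC for both measures, with 1 library each and no estimate of the spread between replicates. Unlike in untransfected EpRas cells, the ratio of type II to type I keratins was higher with than without TGF-β in siNC and in both pairs.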

How the data were processed

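The members and gene lists were chosen with earlier results of these data known. Per the labels, mRNA was sequenced directionally on the Ion Proton, and the submitters' processing notes name TopHat2 2.0.11, Bowtie2 2.2.2.2, Cuffdiff of Cufflinks 2.2.0 and mm10. The authors deposited FPKM per gene and library with Cuffdiff's interval, in 1 table for the 8 untransfected libraries and 1 for the 6 siRNA libraries. FPKM depends on the library total, so a few abundant genes can lower all others. Tests were made within a table. Genes with an OK status and at least 5 FPKM in 1 library were tested (9100 and 9094 genes). Group differences of log2(FPKM + 1) were fitted in R 4.3.3 with limma 3.58.1, with 1 mean per group, all 8 libraries, no block and Benjamini-Hochberg adjustment. The analysis was tested on simulated data. Depth is not in the tables, but for 88.4% of 2088 low genes with 1 start site the FPKM were whole multiples of a common step, the value of 1 read (within 0.03 reads). For the members, reads were recovered where at least 2 libraries had up to 250 reads, which left out Krt7, Krt8, Krt14 and Krt18. Alternatives were other pseudocounts, filters, scalings, fits and leaving out each library. All members were named, and of each list up to 4 called genes per direction with the largest difference. Figures used matplotlib 3.10.9.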

Additional observations from a re-analysis of the deposited data

Results flagged for a closer look

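The effect of TGF-β differed between the lines for 2 of the 7 members tested by the test of the difference itself. Of all 9100 genes tested, 73 were called (0.176% higher and 0.626% lower in EpRas cells). For Krt7 the effect in EpRas minus that in EpH4 cells was -1.87 on the log2(FPKM + 1) scale (limma adjusted p = 0.0491, n = 2 libraries per group), and for Krt14 it was -1.98 (adjusted p = 0.0127). Over the alternatives the adjusted p of the Krt7 difference ranged from 0.0342 to 0.275 and that of Krt14 from 0.00664 to 0.128, and both kept their direction in all 15, while the Krt7 call held under 3 of them and the Krt14 call under 10. In the siRNA libraries, with 1 library each, the difference with TGF-β was 0.15, 0.03 and -0.225 for Krt7 and 0.36, -0.14 and -0.58 for Krt14 in siNC, pair 1 and pair 2. The siNC libraries thus did not show the fall of either gene seen in untransfected EpRas cells. No group held the 4 libraries needed to look for single outlying samples.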

How the results depend on the processing

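The calls between the lines held for Vim, Krt14, Krt17 and Krt19 in both conditions, and for Krt7 with TGF-β, under all 16 limma alternatives and under the Tukey-Kramer test on FPKM. For Vim, Krt17 and Krt19, which passed the filter only through the line in which they were high, this is a description and no sign of stability. The replicate numbers are not paired by the labels, and the correlation of the replicate differences between groups ran from -0.347 to 0.078. With the replicate block, the members called for TGF-β fell to 1 in EpH4 cells (547 of all genes) and 0 in EpRas cells (222), and those for the difference between both effects to 1 (31 of all genes). With the numbers of untreated EpRas exchanged in the block, chosen after seeing the data, 1 member was called for TGF-β in EpRas cells (363 of all genes) and 3 in EpH4 cells (872), where Krt7 was gained (adjusted p = 0.0429). At a pseudocount of 0.1 FPKM 1 member was called for TGF-β in EpH4 (796 of all genes), 1 in EpRas cells (342) and 1 for the difference (53), where Krt17 turned to 0.95. With no filter, 5 members were called between the untreated lines (2245 of all genes), 3 for TGF-β in EpH4 cells (1108) and 1 in EpRas cells (397), and 117 genes for the difference. With a mean of at least 10 FPKM, which tests fewer genes, 880 and 1092 genes were called between the lines without and with TGF-β, 559 and 225 for TGF-β in EpH4 and EpRas cells, and 24 genes with 1 member for the difference. With limma trend, 0 members and 339 of all genes were called for TGF-β in EpRas cells, and 1 member and 45 genes for the difference. With only the groups compared, 0 members and 45 genes were called for TGF-β in EpRas cells, and the Tukey-Kramer test gave 0 members there and 3 in EpH4 cells, with Krt7 gained (adjusted p = 0.0153). For the Tukey-Kramer test no count over all genes is given, so its member counts cannot be set against a share of all genes. With upper quartile scaling Krt18 for TGF-β in EpH4 cells turned to -0.0253.

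When each library was left out in turn, the genes called between the lines were 733 to 2064 without and 822 to 2384 with TGF-β, those for TGF-β were 239 to 1085 in EpH4 and 127 to 413 in EpRas cells, and those for the difference 10 to 127. The members called were 0 to 2 for TGF-β in EpH4 cells, 0 to 1 in EpRas cells and 0 to 2 for the difference. The differences that turned were -1.13 to 0.14 for Krt8 and -0.25 to 0.39 for Krt18 between the lines with TGF-β, -0.0595 to 0.64 for Vim and -0.13 to 0.16 for Krt18 for TGF-β in EpH4 cells, -0.32 to 0.0042 for Vim, -0.76 to 0.51 for Krt8 and -0.53 to 0.12 for Krt18 for TGF-β in EpRas cells, and -0.54 to 0.10 for Krt18 for the difference between both effects. None of these genes was called in the comparison in the full fit. For the siRNA pairs, a pseudocount of 5 FPKM left 0 members and 173 genes at least 2-fold apart with TGF-β and 200 genes without. Pair 1 alone gave 718 genes without and 810.0 with TGF-β, and pair 2 alone 788 and 624. The cause of these changes was not tested, apart from the fewer genes or libraries that some settings use. Vim in EpH4 cells and Krt17 in untransfected EpRas cells rested on 13 reads or fewer per library, which limits the precision of their levels there.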
